A study of Mus musculus with 10 samples.

Results

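Ccn1, Ccn2, Ankrd1, Amotl2, Ajuba, Lats2, Thbs1, Axl and Tead1 are 9 genes of the Hippo pathway's output: 8 are widely used as transcriptional targets of YAP and TEAD, and Tead1 encodes a TEAD factor itself. They were chosen by gene symbol, with earlier results of these data known. All 9 were present among the 32526 gene names shared by the study's tables of RNA abundance. All 9 also passed the filter on low values in both tables (a TPM of at least 1 in at least 3 of 6 libraries for Drosha, or in at least 2 of 4 for Dicer1). The cells were OP9, a line of mouse bone marrow stromal cells that can form adipocytes. Every group had been held for 10 days, from confluence, with rosiglitazone at 1 µM, a drug that switches on the fat cell factor PPARγ. The groups were a Drosha knockout (3 libraries) with an empty vector control (3 libraries), both of batch 2, and a Dicer1 knockout (2 libraries) with its own empty vector control (2 libraries), both of batch 1. The empty vector cells carry the genotype label WT. The labels do not say how the knockouts were made, whether each is 1 clone, or whether the libraries of a group came from separate cultures, so a p-value here reflects how far libraries of a group vary, and that variation may be technical.

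YAP and its relative TAZ are cofactors that carry no DNA-binding domain and reach their target genes through the TEAD factors. In the Hippo pathway the MST kinases activate the LATS kinases, which phosphorylate YAP and TAZ and so hold them in the cytoplasm. Stiff matrix, cell spreading and tension of the actin cytoskeleton release YAP and TAZ to the nucleus. In mesenchymal cells, high YAP and TAZ activity is known for opposing adipocyte formation. Drosha and Dicer1 are the nuclear and the cytoplasmic RNase of microRNA maturation, and the title of the series links Drosha to miR-204 and miR-15b.

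The promoters of the members show what they share in sequence. RefSeq windows on GRCm38.p6, from 250 bases before to 50 bases after a transcription start, were at hand for 6 of the 9 members (Ccn1, Ankrd1, Amotl2, Ajuba, Lats2 and Axl). The letters GGAATG, the core of the TEAD binding motif, were searched on both strands, so that CATTCC on the printed strand is the same motif read from the other strand. All 6 members held at least 1 match, Lats2 in 1 of its 2 windows, whereas 14.7% of the 32851 windows searched and 16.6% of their 27025 genes did. The search left out the windows of 1 chromosome and windows of another length. Ankrd1 (chr19:36119795-36120094, minus strand) and Ccn1 (chr3:145649936-145650235, minus strand) are printed whole, because both genes are classical reporters of YAP activity. Capitals mark the motif.
Ankrd1: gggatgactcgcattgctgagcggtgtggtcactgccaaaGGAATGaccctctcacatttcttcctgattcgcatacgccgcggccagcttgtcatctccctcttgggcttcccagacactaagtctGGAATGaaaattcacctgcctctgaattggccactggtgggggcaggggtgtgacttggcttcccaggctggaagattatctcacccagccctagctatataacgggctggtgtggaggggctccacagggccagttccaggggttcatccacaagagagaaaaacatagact
Ccn1: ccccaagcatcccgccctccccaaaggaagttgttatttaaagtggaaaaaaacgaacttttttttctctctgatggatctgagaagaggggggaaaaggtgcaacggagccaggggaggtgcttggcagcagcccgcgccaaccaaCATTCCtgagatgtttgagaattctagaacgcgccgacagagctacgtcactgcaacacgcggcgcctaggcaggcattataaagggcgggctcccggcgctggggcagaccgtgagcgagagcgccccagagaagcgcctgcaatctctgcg
The motifs of Ankrd1 lay at bases -210 to -205 and -123 to -118 from the start site, both on the gene's own strand. That of Ccn1 lay at -103 to -98 on the opposite strand, upstream of a TATAAA at -25 to -20, a sequence found in 13.6% of the windows searched.

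For the other members with a window, the stretch around each match shows that its position and its strand varied. The matches lay at -233 to -228 in Axl, at -65 to -60 in Amotl2, at -186 to -181 and -164 to -159 in Ajuba, and downstream of the start, at 5 to 10, in Lats2. Axl is shown at chr7:25788944-25788983, Amotl2 at chr9:102717722-102717761, Ajuba at chr14:54577825-54577864 and chr14:54577803-54577842, and Lats2 at chr14:57746097-57746136. Amotl2 lies on the plus strand and the others on the minus strand.
Axl: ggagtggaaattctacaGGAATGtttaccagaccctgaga
Amotl2: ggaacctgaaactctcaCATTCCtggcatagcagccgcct
Ajuba, first match: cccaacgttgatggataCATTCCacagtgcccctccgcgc
Ajuba, second match: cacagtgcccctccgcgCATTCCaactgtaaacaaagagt
Lats2: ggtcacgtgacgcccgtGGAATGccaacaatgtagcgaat
The AP-1 letters TGANTCA, which often lie beside TEAD motifs in enhancers, were in none of the 6 members' windows, against 7.81% of the windows searched, and the CArG box bound by SRF was in none either, against 1.63%. A match is a description of these letters and not a site of binding, and most YAP and TEAD binding is known to lie in distant enhancers, outside such windows.

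Sequence that microRNAs could pair with was looked up because both knockouts bear on microRNA maturation. The mature microRNAs of the title are printed with the seed, bases 2 to 8, in capitals.
miR-15b-5p: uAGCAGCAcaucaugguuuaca
miR-204-5p: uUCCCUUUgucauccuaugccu
The longest annotated 3' UTR (GENCODE, GRCm38) of 6 of the 9 members held 1 match to the seed of the miR-15 and miR-16 family, a seed matched in 24.6% of the 3' UTRs of 11554 genes. These members were Ccn2, Amotl2, Lats2, Thbs1, Axl and Tead1, and Ccn1, Ankrd1 and Ajuba had none. The UTR letters around each match follow, with the match in capitals.
Ccn2: ccaggaagtgctTGCTGCTtctt
Amotl2: ctgtaccaggatTGCTGCTgcat
Lats2: tgtgagaaaccaTGCTGCTgtta
Thbs1: tgcatttctgcaTGCTGCTggtg
Axl: ctctaggttctaTGCTGCTtttt
Tead1: ttgatactgtacTGCTGCTggga
A match to the miR-204 and miR-211 seed was found in Ajuba and in Lats2, against 15.7% of genes.
Ajuba: gacccctttttaAAAGGGAtcct
Lats2: taaaacacatcaAAAGGGAttaa
Of the other 10 families searched, miR-29 (Ccn2, Ajuba and Tead1) and miR-30 (Ccn1, Ankrd1 and Amotl2) matched 3 members each, seeds found in 15.6% and 16% of genes. The miR-17, miR-18, miR-19 and miR-130 families matched 2 members each, beside 14.6%, 9.07%, 13.2% and 11.6% of genes. The miR-27 seed matched Lats2 alone, beside 17.2% of genes. The let-7, miR-26 and miR-101 seeds matched 0 of the 9, beside 10.3%, 11.3% and 11.3% of genes. The members' 3' UTRs ran from 690 bases in Ccn1 to 8147 in Tead1, beside a median of 1156 over all genes, and a longer UTR holds more matches by length alone. Those of the 6 members with a miR-15 and miR-16 match were all longer than this median, the shortest being that of Axl at 1389 bases. Mature microRNAs were not measured in these libraries, and the 12 families searched were chosen after values of these data had been seen.

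TPM keeps no record of sequencing depth, so the depth is unknown and no counting interval can be given. Of 9 stromal markers, 7 or 8 averaged at least 1 TPM in each group. Libraries of a group correlated at 0.972 to 0.99 over genes, lowest in the batch 1 empty vector group, whose libraries had a median absolute log2 difference of 0.218 against 0.118 for the Dicer1 knockout libraries. Drosha RNA stood at 14.8, 13.7 and 15.6 TPM in Drosha knockout, against 38.9, 39.6 and 38.6 TPM in its empty vector (-1.35 ± 0.05, limma adjusted p = 9.72e-06). Dicer1 RNA stood at 19.3 and 14.9 TPM in the libraries labelled Dicer1 knockout, against 23.8 and 17.3 TPM in their empty vector, and the groups overlapped (-0.25 ± 0.21, limma adjusted p = 0.407). The RNA level therefore does not check that label, and these 2 libraries are called by their label below. Knockout and batch coincide, so each knockout was set against the empty vector of its own batch.

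The comparison of Drosha knockout with empty vector asks how loss of the nuclear step of microRNA maturation changes these genes. All 9 members rose, and 7 of them also did so after the libraries had been scaled to remove the general shift of the table. The changes ran from 1.89 for Ankrd1 to 0.22 for Axl on the scale of log2(TPM + 1), with a median of 0.58 beside 0.13 over all genes tested. A gene counts as called when its limma p-value, adjusted by the Benjamini-Hochberg method over all genes tested, is under 0.05. This comparison called many genes: 42.8% of 12739 passed, made up of 35.3% higher and 7.42% lower, shares against which the members' count of 9 has to be read. After median-ratio scaling 18% of all genes were called higher and 16.4% lower, beside the 7 members called higher. In all 9 members every Drosha knockout library lay above every empty vector library, as it did in 44.1% of all genes tested.

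The matrix proteins Ccn1, Ccn2 and Thbs1 are secreted ligands of integrins and other surface receptors, and Thbs1 also activates latent TGF-beta. Ccn2 stood at 53.8, 53.5 and 47.0 TPM in Drosha knockout, against 19.2, 17.6 and 19.1 TPM in empty vector, a rise of 1.42 ± 0.07 (SE; limma adjusted p = 1.43e-05). Ccn1 stood at 269, 281 and 253 TPM in Drosha knockout, against 149, 144 and 133 TPM in empty vector, a rise of 0.91 ± 0.05 (limma adjusted p = 3.59e-05). Thbs1 stood at 241, 227 and 266 TPM in Drosha knockout, against 135, 131 and 156 TPM in empty vector, a rise of 0.80 ± 0.08 (limma adjusted p = 2.96e-04). For each of the 3 genes the lowest knockout library was well above the highest empty vector library. Group means were 51.5 ± 3.87 and 18.6 ± 0.919 TPM for Ccn2, 268 ± 14.0 and 142 ± 8.29 TPM for Ccn1, and 245 ± 20.0 and 141 ± 13.2 TPM for Thbs1, in knockout and in empty vector (SD, n = 3 each).

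Ankrd1 encodes an ankyrin repeat protein found in the nucleus and, in muscle, at the sarcomere, and it had the largest change and the lowest level of the 9. It stood at 5.42, 5.56 and 4.58 TPM in Drosha knockout, against 0.949, 0.468 and 0.615 TPM in empty vector. The means were 5.19 ± 0.527 TPM in knockout and 0.677 ± 0.246 TPM in empty vector (SD, n = 3 each), a 7.66-fold ratio. The groups were far apart, and all empty vector values lay below 1 TPM, so Ankrd1 passed the filter through the knockout libraries alone. Its change was 1.89 ± 0.15 (limma adjusted p = 1.00e-04), a value that the pseudocount of 1 holds down: with 0.1 it was 2.81.

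Amotl2, Lats2 and Ajuba encode proteins that act back on the pathway. AMOTL2, an angiomotin, binds YAP and keeps it from the nucleus, LATS2 is one of the kinases that phosphorylate YAP, and AJUBA binds LATS kinases and holds them in check. Lats2 stood at 30.3, 30.2 and 32.6 TPM in Drosha knockout, against 19.9, 20.3 and 21.2 TPM in empty vector (0.58 ± 0.05, limma adjusted p = 1.56e-04). Amotl2 stood at 132, 134 and 129 TPM in Drosha knockout, against 97.5, 92.1 and 93.2 TPM in empty vector (0.48 ± 0.04, limma adjusted p = 7.66e-05). Ajuba stood at 25.9, 25.1 and 25.7 TPM in Drosha knockout, against 19.9, 19.2 and 18.4 TPM in empty vector (0.40 ± 0.05, limma adjusted p = 5.82e-04). RNA of the YAP inhibitors and of the inhibitor of their kinase was thus higher in knockout, with groups that did not overlap. Means in knockout and in empty vector were 31.0 ± 1.37 and 20.4 ± 0.676 TPM for Lats2, 132 ± 2.81 and 94.2 ± 2.83 TPM for Amotl2, and 25.6 ± 0.383 and 19.1 ± 0.776 TPM for Ajuba (SD, n = 3 each).

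Axl, a receptor tyrosine kinase whose ligand is GAS6, and Tead1, a DNA-binding partner of YAP, changed least. Axl stood at 69.9, 67.2 and 67.6 TPM in Drosha knockout, against 58.8, 57.0 and 59.8 TPM in empty vector, a change of 0.22 ± 0.04 (limma adjusted p = 0.00259). Tead1 stood at 29.6, 26.8 and 32.2 TPM in Drosha knockout, against 24.3, 23.8 and 25.2 TPM in empty vector, a change of 0.26 ± 0.07 (limma adjusted p = 0.0194). The groups did not overlap for either gene, but the changes were close to the shift of the whole table. Scaling each library to the median ratio over genes, which puts the median change of all genes at -0.00 in place of 0.13, left Axl at 0.07 (limma adjusted p = 0.173) and Tead1 at 0.12 (limma adjusted p = 0.189). Quantile normalization left them at 0.06 and 0.09. The other 7 members passed under both scalings, from 0.26 for Ajuba to 1.80 for Ankrd1 with median-ratio scaling. Without Drosha knockout replicate 1, empty vector replicate 1 or empty vector replicate 2, Tead1 also failed, with limma adjusted p between 0.0532 and 0.0613.

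**Figure D1:**
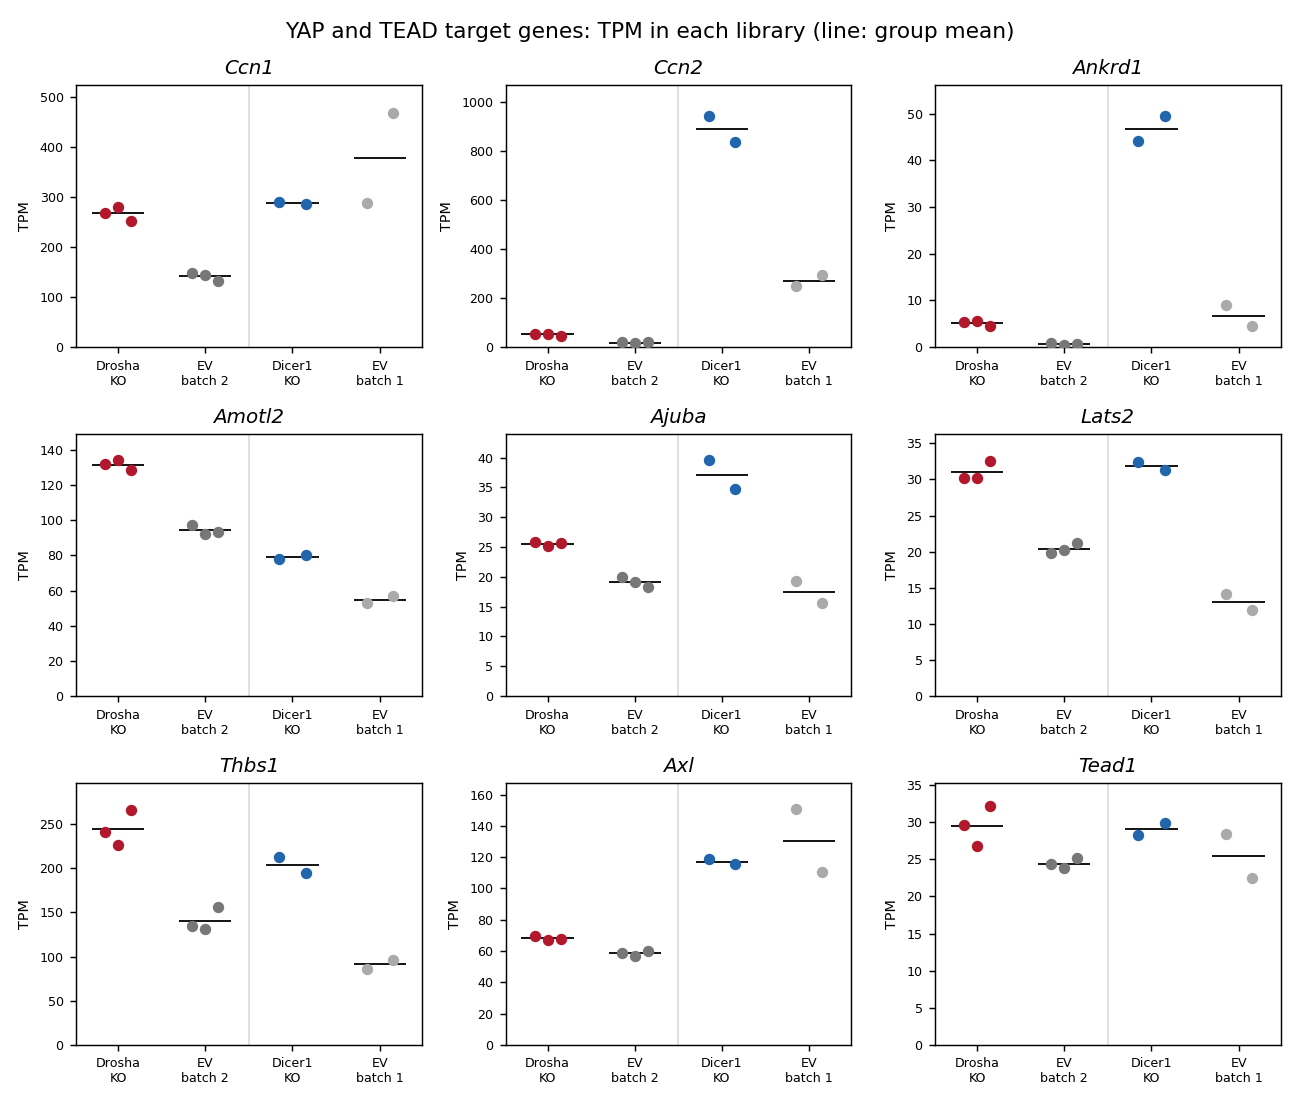
TPM of the 9 members in every library (points) with the group mean (line), 1 panel per gene with its own axis from 0, Drosha knockout left of its empty vector and Dicer1 knockout left of its own. In Ccn2 and Ankrd1 both knockouts lie far above their empty vector, while in Ccn1 the Dicer1 knockout libraries, at 290 and 287 TPM, lie beside empty vector libraries at 288 and 469 TPM.

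The comparison labelled Dicer1 knockout against empty vector asks the same of the cytoplasmic step, with 2 libraries a group. Ankrd1, Ccn2, Lats2, Thbs1, Ajuba and Amotl2 rose, Ccn1, Axl and Tead1 did not pass the test, and no member fell. The median change of the 9 was 1.05, beside 0.15 over all genes tested. Here 31.1% of 12239 genes were called, 21.5% higher and 9.6% lower. After median-ratio scaling 12.9% were higher and 12.9% lower. The 6 members were called higher in both knockouts, as were 13% of the 11146 genes tested in both. With median-ratio scaling 5 members were called higher in both, beside 4.77% of all genes tested in both. In 6 members both libraries labelled Dicer1 knockout lay above both empty vector libraries, which was so in 45.9% of all genes, and in 3 members the groups overlapped. The calls rest on both libraries of the knockout: without either one limma called 0 of the 9 members and 0 of all genes, while 6 members and 2925 or 3129 genes kept an unadjusted p under 0.05.

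Among the matrix proteins, Ccn2 stood at 943 and 837 TPM in the libraries labelled Dicer1 knockout, against 249 and 294 TPM in empty vector, a rise of 1.71 ± 0.12 (limma adjusted p = 0.00269). Thbs1 stood at 213 and 194 TPM in these libraries, against 85.8 and 96.7 TPM in empty vector, a rise of 1.15 ± 0.10 (limma adjusted p = 0.00438). Ccn1 stood at 290 and 287 TPM, against 288 and 469 TPM in empty vector (-0.35 ± 0.23, limma adjusted p = 0.285). Ccn1 thus departed from Ccn2 and Thbs1, and its value was set by the spread of the empty vector pair: it was 0.004 without empty vector replicate 2 and -0.70, a called fall, without replicate 1 (limma adjusted p = 0.0168). Means in the libraries labelled Dicer1 knockout and in empty vector were 889.9 ± 74.9 and 271 ± 31.4 TPM for Ccn2, 204 ± 13.2 and 91.2 ± 7.73 TPM for Thbs1, and 289 ± 2.17 and 378 ± 128 TPM for Ccn1 (SD, n = 2 each).

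Ankrd1 stood at 44.1 and 49.6 TPM in the libraries labelled Dicer1 knockout, against 8.99 and 4.43 TPM in empty vector, a rise of 2.70 ± 0.30 (limma adjusted p = 0.0061). It again had the largest change of the members, with group means of 46.8 ± 3.87 and 6.71 ± 3.23 TPM in knockout and empty vector (SD, n = 2 each), a 6.98-fold ratio close to the 7.66-fold one of Drosha knockout. Both knockout libraries lay clear of both empty vector libraries.

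Of the genes that act back on the pathway, Lats2 stood at 32.4 and 31.3 TPM in the libraries labelled Dicer1 knockout, against 14.1 and 11.9 TPM in empty vector (1.23 ± 0.14, limma adjusted p = 0.00614). Ajuba stood at 39.6 and 34.7 TPM, against 19.3 and 15.6 TPM in empty vector (1.05 ± 0.15, limma adjusted p = 0.0097). Amotl2 stood at 77.8 and 80.4 TPM, against 52.8 and 56.8 TPM in empty vector (0.52 ± 0.09, limma adjusted p = 0.0152). All 3 groups of knockout values lay clear of the empty vector values. Amotl2 was the call that depended on the scaling: it stood at 0.37 with median-ratio scaling (limma adjusted p = 0.0586) and at 0.33 with quantile normalization (limma adjusted p = 0.07), and Ccn2, Ankrd1, Ajuba, Lats2 and Thbs1 kept their calls under both.

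Axl stood at 119 and 116 TPM in the libraries labelled Dicer1 knockout, against 151 and 110 TPM in empty vector (-0.14 ± 0.16, limma adjusted p = 0.535). Tead1 stood at 28.2 and 29.9 TPM, against 28.5 and 22.5 TPM in empty vector (0.19 ± 0.15, limma adjusted p = 0.366). Both overlapped, and the intervals of the differences, -0.53 to 0.25 for Axl and -0.18 to 0.57 for Tead1 (limma, 95%), include changes of the size seen in Drosha knockout. Axl was at 0.08 without empty vector replicate 1 and at -0.36, a called fall, without replicate 2 (limma adjusted p = 0.0304). Gas6, the ligand gene of Axl, fell in these libraries to 18.6 TPM on average, against 58.3 TPM in empty vector (-1.55 ± 0.26, limma adjusted p = 0.0123). In Drosha knockout Gas6 averaged 380 TPM, against 366 TPM in empty vector (0.05 ± 0.03, limma adjusted p = 0.144), and -0.09 with median-ratio scaling, a called fall (limma adjusted p = 0.0331).

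**Figure D2:**
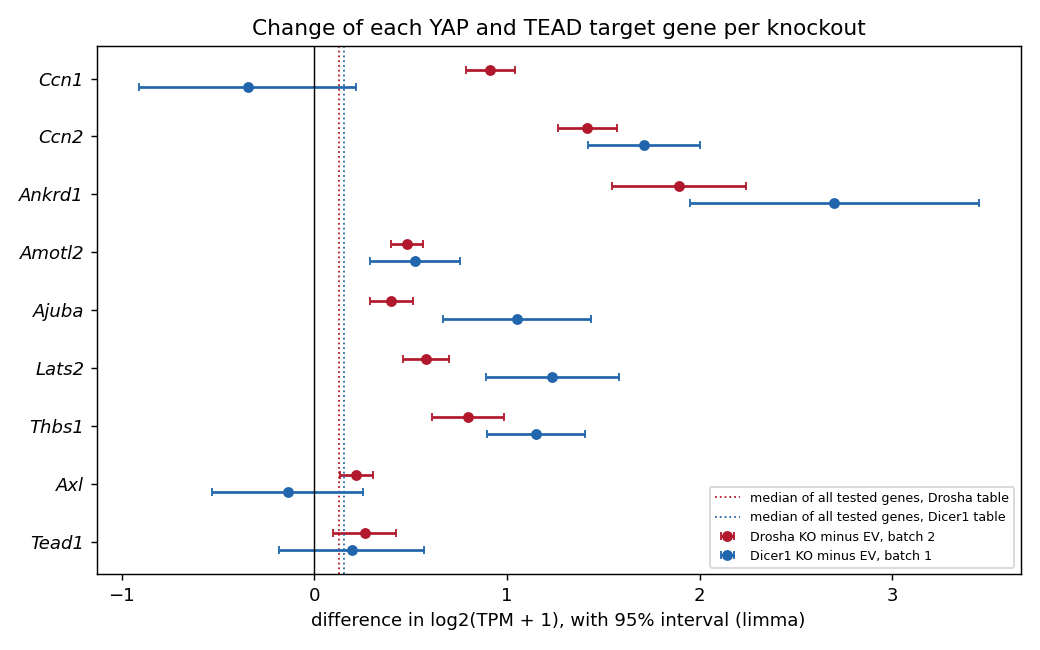
Difference of each member from its own empty vector in log2(TPM + 1), as a point with its 95% limma interval, Drosha knockout (red) above Dicer1 knockout (blue) within each gene. The dotted lines mark the median of all genes tested, 0.13 and 0.15. All red intervals lie above 0, and the blue intervals of Ccn1, Axl and Tead1 cross it.

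The knockouts were compared with each other by the difference of their changes, Drosha minus Dicer1, which limma tested over the 10 libraries together for 11146 genes. Of these genes 35.5% were called, 17.4% higher and 18.1% lower, so 3 called members of 9 is close to the share of all genes. Ccn1 changed more in Drosha knockout than in the libraries labelled Dicer1 knockout (1.26 ± 0.22, 95% interval 0.76 to 1.76, limma adjusted p = 0.00197). Lats2 (-0.66 ± 0.11, limma adjusted p = 0.00178) and Ajuba (-0.65 ± 0.13, limma adjusted p = 0.00434) rose less in Drosha knockout. These 3 calls held in all 19 alternatives to this fit.

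The other 6 members did not pass. Their intervals set what size of difference remains possible: -0.58 to -0.01 for Ccn2 (limma adjusted p = 0.101), -1.53 to -0.08 for Ankrd1 (0.0804), -0.21 to 0.12 for Amotl2 (0.68), -0.65 to -0.06 for Thbs1 (0.0615), 0.03 to 0.68 for Axl (0.0855) and -0.26 to 0.40 for Tead1 (0.758). Amotl2 had the narrowest interval, with rises of 0.48 and 0.52 in Drosha and Dicer1 knockout. For Ankrd1 the difference of -0.81 ± 0.33 shrank to -0.06 with a pseudocount of 0.1, since the batch 2 empty vector values lay under 1 TPM. It grew to -1.25 without batch 1 empty vector replicate 1. The test pools the spread of the 4 groups although the batch 1 empty vector libraries varied most.

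**Figure D3:**
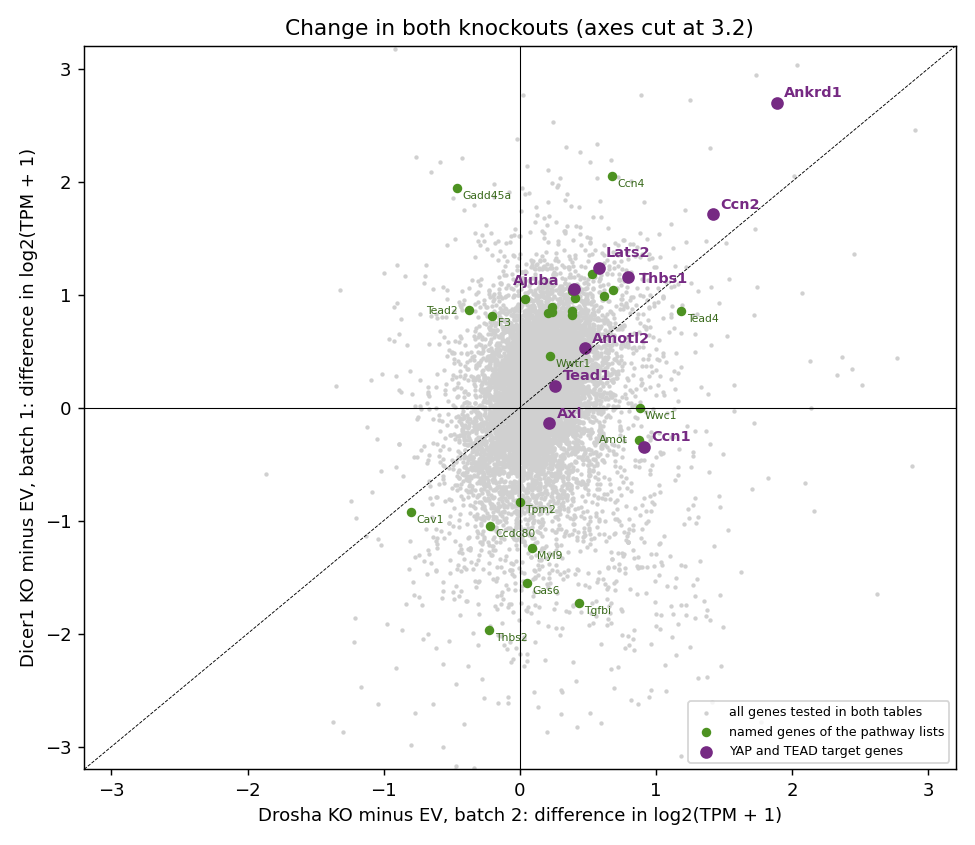
Change in Drosha knockout (horizontal) against change in the libraries labelled Dicer1 knockout (vertical), both as differences in log2(TPM + 1) from the own empty vector, for all genes tested in both tables (grey), the named pathway genes (green, unlabelled where they crowd) and the 9 members (purple). Ankrd1, Ccn2, Thbs1, Lats2, Ajuba and Amotl2 lie in the upper right, and Ccn1 lies below 0 on the vertical axis at -0.35 and right of 0 on the horizontal axis at 0.91.

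Levels of the members relative to each other, in TPM and so per transcript length, differed between the batches and with the knockout. In Drosha knockout the order of the means ran Ccn1, Thbs1, Amotl2, Axl, Ccn2, Lats2, Tead1, Ajuba and Ankrd1, and the libraries of Ccn1 and Thbs1 overlapped, as did those of Lats2 and Tead1. In the batch 2 empty vector Ccn1 and Thbs1 again led and overlapped, followed by Amotl2, Axl and Tead1. Lats2, Ajuba and Ccn2 came next, with Lats2 and Ajuba overlapping and Ajuba and Ccn2 overlapping, and Ankrd1 was last. Ccn2 was therefore the eighth of 9 in that empty vector and the fifth in Drosha knockout.

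In the libraries labelled Dicer1 knockout Ccn2 led at 889.9 TPM, above Ccn1, Thbs1, Axl, Amotl2, Ankrd1, Ajuba, Lats2 and Tead1 in that order, and no neighbours overlapped. In the batch 1 empty vector Ccn1 and Ccn2 led and overlapped, followed by Axl, Thbs1, Amotl2, Tead1, Ajuba, Lats2 and Ankrd1. The summed TPM of the 9 was 858, 850 and 858 in Drosha knockout, against 524, 506 and 526 in its empty vector. In the libraries labelled Dicer1 knockout it was 1787 and 1660, against 897 and 1081 in their empty vector. Ccn1 and Thbs1 made up most of the sum in batch 2, and Ccn2 did so in the libraries labelled Dicer1 knockout.

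The ratio of Ccn1 to Ccn2 moved with both knockouts. It was 5.00, 5.25 and 5.39 in Drosha knockout, against 7.74, 8.21 and 6.94 in empty vector, with means of 5.21 ± 0.197 and 7.63 ± 0.644 in knockout and empty vector (SD, n = 3 each; exact two-sided permutation test, p = 0.1, the smallest this design allows). It was 0.308 and 0.343 in the libraries labelled Dicer1 knockout, against 1.16 and 1.60 in empty vector (exact two-sided permutation test, p = 0.333, the smallest this design allows). In both comparisons every knockout library had the lower ratio. The empty vector groups themselves differed in level: the batch 1 mean stood at 14.6 times the batch 2 mean for Ccn2, 9.91 times for Ankrd1 and 2.67 times for Ccn1, but at 0.581 times for Amotl2, 0.636 times for Lats2 and 0.648 times for Thbs1. TPM is scaled to a fixed total per library, the empty vector groups are of different batches, and no test was made between them.

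Across the 10 libraries, each centred on the mean of its own empty vector, Pearson's r over the 15 pairs of the 6 members called in both knockouts lay between 0.818 and 0.991. These 6 were picked for rising in both, which fixes a high r on values centred in this way, and the libraries share 4 group means, so the range is a description only. Ccn1 correlated with the other 8 members at -0.194 to 0.544, and Axl with those 6 at -0.13 to 0.142. Of 7286 genes at 10 TPM or more, those most like Ccn2 by this r were Ube2g2 (0.996), Leprotl1 (0.993), Rap2c (0.992), the member Amotl2 (0.991) and Vps26a (0.991). Those most like Ccn1 were Ugp2 (0.982), Raly (0.981), Mknk2 (0.98), Dusp5 (0.977) and Agpat5 (0.975). With 4 group means behind 10 points, many genes reach values of this size.

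Of 16 tested genes of the Hippo kinase pathway upstream of YAP, 13 rose and 0 fell in Drosha knockout (median 0.23), and 10 rose and 0 fell in the libraries labelled Dicer1 knockout (median 0.44), beside 35.3% and 21.5% of all genes called higher. The genes that rose in both numbered 8, beside 13% of the 11146 genes tested in both. After median-ratio scaling the counts were 6 higher in Drosha knockout and 7 higher in the Dicer1 pair, with 0 lower in each. Of all genes 18% and 12.9% were then called higher. With that scaling 3 rose in both, beside 4.77% of all genes tested in both. Stk4, which encodes the kinase MST1, stood at 16.2 and 12.2 TPM in Drosha knockout and empty vector (0.38, limma adjusted p = 0.00242) and at 29.7 and 14.0 TPM in the Dicer1 pair (1.04, limma adjusted p = 0.00849). Lats1, the other LATS kinase gene, stood at 17.8 and 14.9 TPM in Drosha knockout and empty vector (0.24, limma adjusted p = 0.0463, lost in 9 of 15 alternatives) and at 37.6 and 19.8 TPM in the Dicer1 pair (0.89, limma adjusted p = 0.00801). Wwc2, a scaffold of the LATS kinases, rose in both (0.38 and 0.86), and its relative Wwc1 rose in Drosha knockout (0.88) and stood at -0.00 in the Dicer1 pair. Wwc1 was low, at 1.88, 1.92 and 2.40 TPM in Drosha knockout, against 0.678, 0.762 and 0.545 TPM in empty vector, so it passed the filter of the Drosha table through the knockout libraries alone.

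Of 7 tested genes of YAP, TAZ, the other TEAD factors and their cofactors, 4 rose and 1 fell in Drosha knockout (median 0.19), and 4 rose and 0 fell in the Dicer1 pair (median 0.46). Of all genes 35.3% and 21.5% were called higher. After median-ratio scaling 2 rose and 2 fell in Drosha knockout and 2 rose in the Dicer1 pair, beside 18% and 12.9% of all genes called higher. Yap1, looked up after the values were seen, averaged 62.0 TPM in Drosha knockout and 54.4 TPM in empty vector (0.19 ± 0.04, limma adjusted p = 0.00779), and 65.1 and 48.8 TPM in the Dicer1 pair (0.41 ± 0.10, limma adjusted p = 0.0297). Both calls of Yap1 ended after either scaling, with 0.04 and 0.26 after median-ratio scaling (limma adjusted p = 0.4 and 0.114), and its call in the Dicer1 pair was lost in 7 of 13 alternatives. Wwtr1, which encodes TAZ, rose by 0.22 and 0.46 in the 2 knockouts, calls that also both ended after either scaling (0.08 and 0.31 with median-ratio scaling). Tead4 rose to 5.55 TPM in Drosha knockout, against 1.88 TPM in empty vector (1.18, limma adjusted p = 2.54e-04), and stood at 9.78 and 5.18 TPM in the Dicer1 pair (0.86, limma adjusted p = 0.079). Tead2 fell in Drosha knockout (-0.37, a call lost without 4 of the 6 libraries in turn) and rose in the Dicer1 pair (0.86), and Vgll3, a TEAD cofactor gene, rose in both (0.40 and 0.97).

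Other published YAP and TEAD targets were called in both directions. Of 12 tested, 5 rose and 3 fell in Drosha knockout (median 0.16), and of 13 tested, 6 rose and 2 fell in the Dicer1 pair (median 0.42), beside 35.3% and 21.5% of all genes called higher. After median-ratio scaling 4 rose and 3 fell in each, beside 18% and 12.9% of all genes called higher and 16.4% and 12.9% lower. Gadd45a, a stress-induced gene of growth arrest, stood at 55.1 and 76.2 TPM in Drosha knockout and empty vector (-0.46, limma adjusted p = 3.29e-04) and at 287 and 76.6 TPM in the Dicer1 pair (1.95, limma adjusted p = 0.00792). F3, which encodes tissue factor, also fell in one (-0.20) and rose in the other (0.81). Ccdc80, a matrix protein gene, fell in both (-0.22 and -1.05). Nt5e, which encodes the ectonucleotidase CD73, was below the filter in the Drosha table and rose to 12.8 TPM in the libraries labelled Dicer1 knockout, against 2.51 TPM in empty vector (1.98, limma adjusted p = 0.00604).

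Of the relatives of the members, 4 of 15 rose and 1 fell in Drosha knockout (median 0.10), and 2 of 13 rose and 2 fell in the Dicer1 pair (median 0.01), beside 42.8% and 31.1% of all genes called in either direction. After median-ratio scaling 4 rose and 3 fell in Drosha knockout and 2 rose and 2 fell in the Dicer1 pair, with medians of -0.03 and -0.11. Ccn4, of the CCN family, rose in both (0.68 and 2.05) and reached 138 TPM in the libraries labelled Dicer1 knockout, against 32.6 TPM in empty vector. Thbs2, the relative of Thbs1, fell in both (-0.22 and -1.97) and stood at 37.2 TPM in these libraries, against 149.6 TPM in empty vector. Amot, the angiomotin that gives the family its name, rose in Drosha knockout to 62.1 TPM, against 33.3 TPM in empty vector (0.87, limma adjusted p = 1.37e-04), and was at -0.29 in the Dicer1 pair (limma adjusted p = 0.293). Thbs1 and Thbs2 thus went in opposite directions in both comparisons.

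Genes of pathways that share targets with YAP were counted too. Their counts have to be read beside the shares of all genes in Drosha knockout and in the Dicer1 pair. These were 35.3% and 21.5% called higher and 7.42% and 9.6% lower. After median-ratio scaling they were 18% and 12.9% higher, and 16.4% and 12.9% lower. Of 14 genes of SRF, its MRTF cofactors and their cytoskeletal targets, 12 rose and 0 fell in Drosha knockout (median 0.33, 7 and 1 after median-ratio scaling), and 5 rose and 2 fell in the Dicer1 pair (median 0.19, 3 and 3 after scaling). Tpm1 and Flna, which encode a tropomyosin and filamin A, rose in both (0.38 and 0.82, and 0.23 and 0.84), whereas Myl9 (-1.24) and Tpm2 (-0.83), a myosin light chain and another tropomyosin gene, fell in the Dicer1 pair. In Drosha knockout neither of them passed, though Tpm2 was called lower with median-ratio scaling (-0.15) and Myl9 higher with quantile normalization (0.15) but at -0.06 with median-ratio scaling. The rise of Flna there ended with median-ratio scaling (0.09). Of 14 TGF-beta genes, 9 rose and 1 fell in Drosha knockout (median 0.30, 6 and 2 after scaling), and 8 rose and 3 fell in the Dicer1 pair (median 0.59, 6 and 3 after scaling).

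Of the TGF-beta list, the receptor genes Tgfbr1 (0.53 and 1.18) and Tgfbr3 (0.68 and 1.04) rose in Drosha knockout and in the Dicer1 pair, and the matrix gene Tgfbi rose in Drosha knockout (0.43) and fell in the Dicer1 pair (-1.73). Of 16 integrin and focal adhesion genes, 13 rose and 1 fell in Drosha knockout (median 0.25, 5 and 1 after scaling), and 11 rose and 1 fell in the Dicer1 pair (median 0.68, 8 and 1 after scaling). The shares of all genes called higher were 35.3% and 21.5%, and 18% and 12.9% after scaling. Rock2, a kinase of actomyosin tension, rose in both (0.62 and 0.98), the integrin gene Itga5 rose by 0.21 (a call that ended after scaling, at 0.06) and by 0.84, the kinase gene Src rose in the Dicer1 pair (0.96) and did not pass in Drosha knockout (0.04, and -0.10 after scaling), and the gene that fell in both was Cav1 (-0.80 and -0.93), which encodes the coat protein of caveolae.

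**Figure D4:**
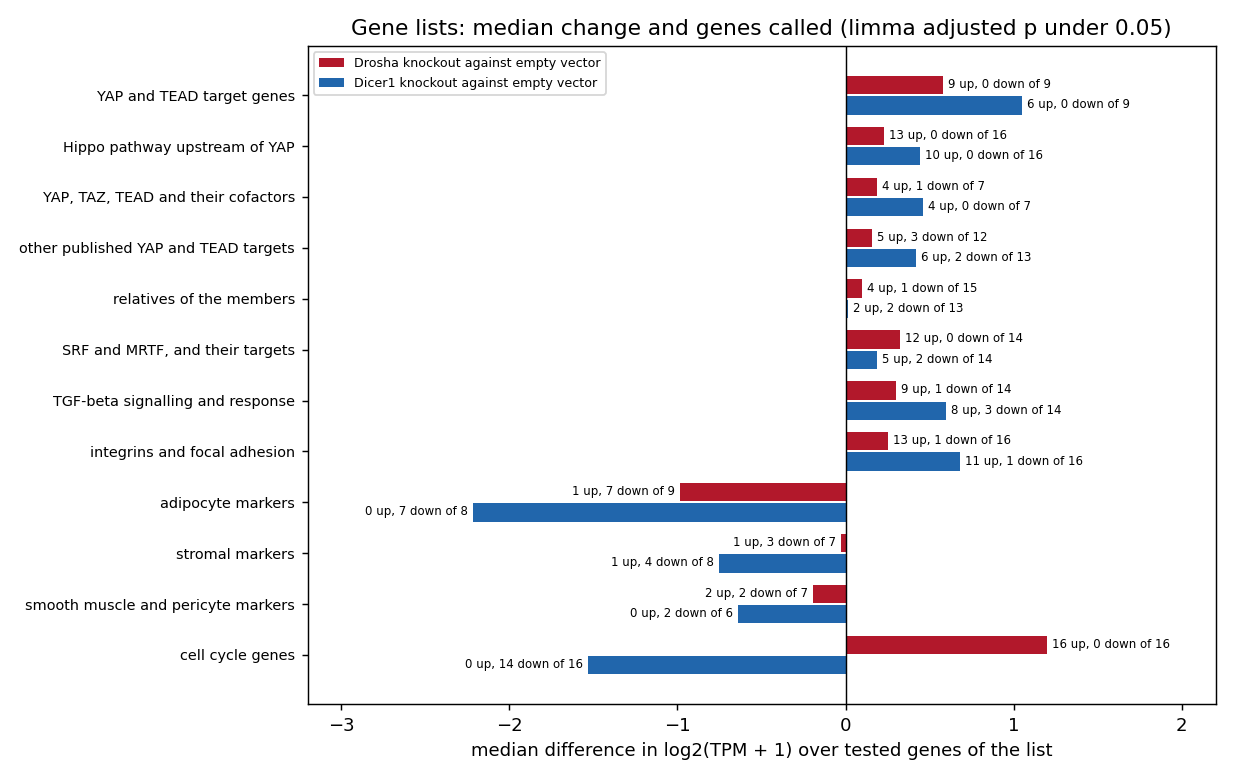
Median difference from empty vector in log2(TPM + 1) over the tested genes of each list (bars from 0, Drosha knockout above Dicer1 knockout) with the number of genes called higher and lower by limma. The 9 members have the highest median of the pathway lists in both knockouts, at 0.58 and 1.05, and the cell cycle genes point in opposite directions, at 1.20 and -1.53. Members and lists were chosen with earlier results of these data known, so this order is a description only.

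Other gene groups moved in the same libraries, and their part in the members' changes was not tested. In Drosha knockout 35.3% of all genes were called higher and 7.42% lower, and in the Dicer1 pair 21.5% and 9.6%. With median-ratio scaling the shares were 18% and 16.4% in Drosha knockout, and 12.9% and 12.9% in the Dicer1 pair. Of the adipocyte markers, 7 of 9 fell and 1 rose in Drosha knockout (median -0.99), and 7 of 8 fell in the Dicer1 pair (median -2.21). Adipoq, the adiponectin gene, stood at 106, 107 and 118 TPM in Drosha knockout, against 231, 239.7 and 233 TPM in empty vector, and at 0.148 and 0.164 TPM in the libraries labelled Dicer1 knockout, against 61.6 and 36.4 TPM in empty vector. Fabp4, the marker with the highest mean in each group, was the one that rose in Drosha knockout. It averaged 1152 TPM there, against 896 TPM in empty vector (0.36, limma adjusted p = 6.65e-05). In the Dicer1 pair Fabp4 fell, at 187 and 654 TPM in knockout and empty vector. Pparg passed in neither comparison, at 138 and 133 TPM for Drosha and 113 and 122 TPM in the Dicer1 pair. The summed adipocyte markers were 1906 to 1959 TPM in Drosha knockout, against 1951 to 1959 TPM in empty vector, and 354 to 386 TPM in the libraries labelled Dicer1 knockout, against 1016 to 1177 TPM in empty vector. In bulk RNA fewer adipocytes and less RNA per adipocyte cannot be told apart, and the same holds for cells with high Ccn2 or Ankrd1.

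Of 16 cell cycle genes, 16 rose in Drosha knockout (median 1.20) and 14 fell in the Dicer1 pair (median -1.53). Their summed TPM was 413 to 432 in Drosha knockout, against 217 to 220 in empty vector, and 333 to 356 in the libraries labelled Dicer1 knockout, against 608 to 1015 in empty vector. Of the stromal markers 1 of 7 rose and 3 fell in Drosha knockout, and 1 of 8 rose and 4 fell in the Dicer1 pair, with sums of 8358 to 8513 and 8320 to 8877 TPM in Drosha knockout and its empty vector, and 794 to 825 and 1256 to 1458 TPM in the Dicer1 pair. Of the smooth muscle and pericyte markers 2 of 7 rose and 2 fell in Drosha knockout, and 0 of 6 rose and 2 fell in the Dicer1 pair. After median-ratio scaling the stromal counts were 1 higher and 4 lower in Drosha knockout and 0 and 6 in the Dicer1 pair, and those of the smooth muscle and pericyte markers were 1 higher and 4 lower in Drosha knockout and 0 and 3 in the Dicer1 pair. The smooth muscle and pericyte sums were 2597 to 2627 TPM in Drosha knockout, against 2425 to 2554 TPM in empty vector, and 518 to 558 TPM in the libraries labelled Dicer1 knockout, against 690 to 1085 TPM in empty vector. Myh11, the defining myosin of smooth muscle, was at most 0.145 TPM in every library. Macrophage markers summed to between 13.3 and 23.5 TPM, with 0 called, and the defining marker Adgre1 was at 0 in all libraries of batch 1 and under 0.1 TPM in batch 2. Endothelial markers summed to between 0.383 and 4.33 TPM, and none passed the filter.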

How the data were processed

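RNA of mouse OP9 cells was sequenced after mRNA capture, per the labels' protocols, which name more than one extraction kit and sequencer without assigning them to libraries. The authors deposited TPM per gene, 1 table for each knockout, and the submitters' processing notes name kallisto 0.48.0. The sources used here give no transcript index, genome build or trimming. TPM is scaled to a fixed total per library, so depth is unknown and a gene's value depends on all others. Unnamed genes of the Drosha table were named by Ensembl ID where possible (20024 of 22369), and those of the Dicer1 table (22339, holding 4.25% to 6.22% of TPM) were left out. Rows that share a name were summed, which for Lats2 added a second row of at most 0.199 TPM.

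Genes with a TPM of at least 1 in 3 of 6 or 2 of 4 libraries were tested with limma 3.58.1 in R 4.3.3 on log2(TPM + 1), with a two-sided test whose variances were moderated along a mean trend, and Benjamini-Hochberg adjustment over all genes tested. A fold change on this scale understates that of genes with a low TPM. The method was tested on simulated data. Replicate numbers of the labels were used only as names, and the closing section gives a fit with them as a block. The alternatives were pseudocounts of 0.1 and 0.5, limma without that trend, quantile normalization or median-ratio scaling of the TPM, no filter or one at 5 TPM, 1 fit of all 10 libraries, 1 weight per group, and leaving out each library in turn. The members, the gene lists and the tests were chosen with earlier results of these data known, so none of them is independent evidence. From each pathway list the text names up to 4 called genes with the largest change in either comparison. A gene that this rule also picks is not reported here. Genes most like Ccn1 and Ccn2 were taken among those with a mean of at least 10 TPM in at least 1 group of each table. RefSeq promoters and microRNAs (GRCm38.p6) and GENCODE 3' UTRs were matched by name.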

Additional observations from a re-analysis of the deposited data

Results flagged for a closer look

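Results below drew attention because the change in Drosha knockout and the change in the libraries labelled Dicer1 knockout differed in the limma test of that difference. No group has the 4 libraries that a test for a library far from the others would need. Values are the Drosha change minus the Dicer1 change in log2(TPM + 1), and such a difference was called in 35.5% of all genes.

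Among the members they were Ccn1 at 1.26, Lats2 at -0.66 and Ajuba at -0.65. The targeted genes differed as well, Drosha at -1.54 and Dicer1 at 1.19. Dicer1 rose in Drosha knockout to 18.3 TPM, against 9.07 TPM in empty vector, and was not called in the libraries that carry its name. Upstream of YAP, Stk4 (-0.65), Lats1 (-0.66) and Wwc2 (-0.48) had rises that were smaller in Drosha knockout, and Wwc1 (0.88) stood higher in that knockout, where it passed the filter through the knockout libraries alone. The Wwc1 call was lost in 2 of 18 alternatives (limma adjusted p up to 0.0673). Of the TEAD factors and cofactors, Tead2 differed by -1.23, Vgll3 by -0.56 and Wwtr1 by -0.24, the last a call that was lost in 12 of 19 alternatives. Of other published targets, Gadd45a differed by -2.41, F3 by -1.02 and Ccdc80 by 0.83, and of the members' relatives Ccn4 by -1.38, Thbs2 by 1.75, Gas6 by 1.61 and Amot by 1.16. Of the cytoskeletal genes, Myl9 differed by 1.33, Tpm2 by 0.83, Flna by -0.61 and Tpm1 by -0.43. Tgfbi (2.16) and Tgfbr1 (-0.65) of the TGF-beta list differed, as did Rock2 (-0.36, a call lost in 2 of 19 alternatives), Src (-0.93) and Itga5 (-0.63) of the focal adhesion list. Knockout and batch coincide, so a difference between knockouts and a difference between batches cannot be told apart.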

How the results depend on the processing

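All 9 members were called in Drosha knockout, where 5447 of 12739 genes were called, and the count of members lay between 7 and 9 over all alternatives. For Dicer1, 3802 genes were called as reported, 1847 with no filter, 6569 in 1 fit of all 10 libraries and between 0 and 3988 when 1 library was left out, where the lone library is assumed to vary like the other group. The calls of the 6 members rested on both libraries labelled Dicer1 knockout. Without either one, the changes of these members lay between 0.50 for Amotl2 and 2.78 for Ankrd1. Without empty vector replicate 1 Ccn1 stood at -0.70, and without replicate 2 Axl stood at -0.36, both in the direction of a fall. In the difference of the knockouts, 3 members and 3960 of 11146 genes were called. Leaving out 1 library of batch 2 gave 3 or 4 members and 3246 to 3585 genes. Changes of sign in Drosha knockout were those of Gas6 (-0.091 with median-ratio scaling, -0.067 with quantile normalization), Myl9 (-0.057 with median-ratio scaling), Src (-0.10 and -0.14 with those scalings, and -0.036 to 0.093 when 1 library was left out) and Tpm2 (0.0011, 0.019 and 0.019 without Drosha knockout replicate 2, replicate 3 or empty vector replicate 1, within a range of -0.021 to 0.019). For Dicer1 they were Wwc1 (0.075 with quantile normalization, and -0.13 to 0.13 when 1 library was left out), Axl (-0.36 to 0.084) and Ccn1 (-0.70 to 0.004). For the difference they were Cav1 (-0.028 to 0.28), Amotl2 (-0.097 to 0.0068), Tead1 (-0.097 to 0.23) and Tead4 (-0.070 to 0.73), all when 1 library was left out. The cause was not tested. Scaling to the median ratio split the calls into 2297 higher and 2083 lower for Drosha and 1583 and 1580 for Dicer1. Libraries with the same replicate number did not deviate together (r of -0.021, 0.02 and -0.007 for Drosha, -0.092 for Dicer1). With 2 libraries a group the deviations from the group mean mirror each other. These values therefore cannot exclude that the numbers mark pairs. With the replicate block, 5188, 3045 and 3433 genes were called for Drosha, Dicer1 and their difference, with 9, 6 and 4 members, and Thbs1 was the added member of the difference (-0.36, limma adjusted p = 0.0405). TPM gives no depth, so counting error could not be bounded, and 2 libraries a group limit what the Dicer1 comparison can call.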
